A study of Mus musculus with 4 samples.

Results

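Meg3, Ndn, Grb10, H19, Igf2, Igf2r, Dlk1, Peg3, Mest and Plagl1 are 10 imprinted genes that control growth in the mouse, and they are described here in hematopoietic stem and progenitor cells (HSPCs) of young and aged animals. The members were picked by gene symbol, and all 10 of 10 symbols had a row among the 28692 genes listed. The cells came from bone marrow of male C57BL/6-CD45.2 mice, were lineage-depleted, and were sorted as cKit+ Sca-1+ cells without Flt3 on the surface. Single cells were captured with the 10x Genomics Chromium 3′ v2 chemistry, which counts unique molecular identifiers (UMIs), one per captured transcript 3′ end. There were 4 pools of mice: young A (2 mice) and young B (3 mice) at 2 to 3 months, and old A (3 mice) and old B (2 mice) at 17 to 18 months. Both A pools were captured and sequenced at one facility (HalioDX) and both B pools at another (TGML), so that each facility handled 1 young and 1 old pool. No animal carried a transgene or received a treatment according to the labels, and each value of a pool is an average over its mice. The free-text descriptions of 2 pools, young B and old A, name the other age. The age of every pool was therefore taken from its title, which matched the source name.

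Imprinted genes are transcribed mainly from the copy inherited from 1 parent, and DNA methylation set in the germ line marks which copy is used. Dlk1 and Meg3 lie next to each other in one imprinted domain, with Dlk1 read from the paternal and Meg3 from the maternal chromosome. H19 and Igf2 form a second such pair, in which the maternal chromosome gives the H19 RNA and the paternal one the growth factor Igf2. Several of these genes tune fetal growth, Igf2, Igf2r and Grb10 among them by acting on insulin-like growth factor signalling. Several are also known for high activity in hematopoietic stem cells (HSCs) compared with their progeny.

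After removal of 651 barcodes with extreme UMI totals, 14915 of 15566 barcodes remained, 5189 and 2244 in young A and young B and 3328 and 4154 in old A and old B. The pools held 16399999 to 36446168 UMIs, with medians of 5674 to 6719 UMIs per cell, and pairs of pools shared 10 to 29 barcode sequences. Levels are given in CPM, the UMIs of a gene scaled to a common total per pool. Summed CPM of a 12-gene stromal list lay between 7.84 and 14.0, Col3a1 and Lum had no UMI in any pool, and 0 cells held UMIs of 3 or more stromal genes. A 10-gene endothelial list summed to 218 and 173 CPM in young A and young B and to 349 and 396 CPM in old A and old B. Of its 7 tested genes 2 were called higher, none of the 10 was at 0, 1252 cells held UMIs of 3 or more, and 2 of its genes, Ramp2 and Cldn5, were among the leading genes of the clusters numbered 0 and 2 below. A macrophage list summed to 24.1 and 30.5 CPM in the young pools and 19.7 and 19.9 CPM in the old pools. A plasma cell list summed to 549 to 651 CPM in the young pools and to 2350 to 5078 CPM in the old pools, and immediate early genes to 422 and 1144 CPM in young B and young A and to 935 and 4046 CPM in old B and old A. A 13-gene HSC list summed to 1384 to 1616 CPM in the young pools and 2072 to 2871 CPM in the old pools. The part of these lists in the values below was not tested, except where values within clusters are given.

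Meg3, Ndn and Dlk1 were higher in both old pools than in both young pools, by about 2.5 to 4.5 times. Dlk1 rose 4.53-fold, Meg3 rose 2.95-fold and Ndn rose 2.52-fold in mean CPM. Grb10 was higher in both old pools but did not pass the test, and H19 was lower in both without passing it. Igf2r, with 454 UMIs over all pools, overlapped between the ages. Peg3, Igf2, Mest and Plagl1 gave few UMIs, 11 to 39 each over all pools. The promoter windows of the 3 genes that rose are shown first, since these genes belong to only 2 imprinted domains, and CpG sites, the bases at which imprints are written, are set in capitals. Each window runs from 250 bases before to 50 bases after the RefSeq transcription start (build GRCm38.p6) and is printed 5′ to 3′ along the gene, which for all 3 is the plus strand.
Meg3, chr12:109540746-109541045: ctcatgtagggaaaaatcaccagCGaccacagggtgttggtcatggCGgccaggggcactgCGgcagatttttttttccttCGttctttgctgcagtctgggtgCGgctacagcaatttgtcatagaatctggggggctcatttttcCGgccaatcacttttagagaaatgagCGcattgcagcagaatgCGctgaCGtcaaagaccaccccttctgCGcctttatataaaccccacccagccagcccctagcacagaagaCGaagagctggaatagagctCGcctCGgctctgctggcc
Dlk1, chr12:109452573-109452872: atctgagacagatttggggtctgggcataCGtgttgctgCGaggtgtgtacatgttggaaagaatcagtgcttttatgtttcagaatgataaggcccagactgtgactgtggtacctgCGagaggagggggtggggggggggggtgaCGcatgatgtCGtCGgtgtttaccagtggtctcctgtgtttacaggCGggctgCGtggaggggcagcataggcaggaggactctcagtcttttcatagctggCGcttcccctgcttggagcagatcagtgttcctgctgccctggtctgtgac
Ndn, chr7:62348027-62348326: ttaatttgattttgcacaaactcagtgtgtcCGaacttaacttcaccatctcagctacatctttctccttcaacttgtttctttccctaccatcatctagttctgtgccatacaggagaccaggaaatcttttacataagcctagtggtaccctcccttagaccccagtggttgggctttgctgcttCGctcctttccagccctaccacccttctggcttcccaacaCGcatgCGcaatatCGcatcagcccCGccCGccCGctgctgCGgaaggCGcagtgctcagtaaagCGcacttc
The printed windows hold 13, 9 and 11 CpG sites, against a median of 7 over 32851 RefSeq promoter windows, and 62.1%, 54.2% and 58.6% of all windows hold fewer. The hexamer TGCCGC, the core that the imprint-keeping zinc finger protein Zfp57 recognizes when it is methylated, was searched on both strands. It occurs once in the printed Meg3 window, on the reverse strand, not in the Dlk1 and Ndn windows, and in 11.6% of all windows. Meg3 also has a second RefSeq window, chr12:109545148-109545447, which is not printed. That window holds 1 CpG site and no TGCCGC, and 5.43% of all windows hold fewer CpG sites. RefSeq windows were found for 9 of the 10 genes, and methylation was not measured here. TGCCGC also occurs in windows of Grb10, Igf2, Mest and Plagl1, which did not pass or were not tested. A Grb10 window, chr11:12037371-12037670, holds 45 CpG sites, and 98.1% of all windows hold fewer. The windows were chosen by transcription start and not by where imprints are known to lie.

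Meg3 (ENSMUSG00000021268) is a long noncoding RNA gene of up to 10 exons at chr12:109541001-109571726 of GRCm38, plus strand. Its level was 54.4 CPM in young A and 66.2 CPM in young B, and 182 CPM in old A and 174 CPM in old B, from 1984, 1086, 3778 and 5793 UMIs. The groups did not overlap, and the pools of one age lay closer to each other than to any pool of the other age. The log2 difference, old minus young, was 1.52 ± 0.17 (SE, n = 2 pools per age, adjusted p = 0.0276, edgeR quasi-likelihood test with the facility as a block and Benjamini-Hochberg adjustment over 13555 genes). Within the facilities, the difference of log2(CPM + 1) was 1.72 between the A pools and 1.38 between the B pools. In this comparison 275 genes passed, 2.03% of those tested, and 217 of them, 1.6%, were higher in the old pools. In CPM, 18.1% of the tested genes had both old pools above both young pools and 13.6% had both below, so that this order alone is common.

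Dlk1 (ENSMUSG00000040856), a transmembrane protein of the Notch ligand family that restrains differentiation, has 6 exons at chr12:109452823-109463336, on the same strand and 77.7 kb before Meg3. Its level was 2.88 CPM in young A, 4.15 CPM in young B, 17.2 CPM in old A and 14.6 CPM in old B, from 105, 68, 358 and 486 UMIs. Both old pools exceeded both young pools. The log2 difference was 2.15 ± 0.24 (SE, adjusted p = 0.0258, edgeR), with 2.23 in the A pools and 1.60 in the B pools on the log2(CPM + 1) scale.

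Ndn (ENSMUSG00000033585) codes for necdin, a growth suppressor of the MAGE family that is known to hold HSCs in quiescence. It is a single-exon gene read from the paternal chromosome, at chr7:62346569-62350262. Ndn stood at 34.8 CPM in young A and 37.1 CPM in young B, and at 84.7 CPM in old A and 96.4 CPM in old B. The young pools nearly coincided and lay well under the old ones. Its log2 difference was 1.28 ± 0.17 (SE, adjusted p = 0.0370, edgeR), with 1.26 in the A pools and 1.35 in the B pools.

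In young A and old B, the pools whose descriptions match their titles, Meg3 stood at 54.4 and 174 CPM, Dlk1 at 2.88 and 14.6 CPM and Ndn at 34.8 and 96.4 CPM. With 2 pools per age an exact permutation test cannot give a two-sided p under 0.33, so that the calls rest on the spread that edgeR shares between genes. DESeq2, in which 4.01% of all genes passed, called the same 3 members (adjusted p = 2.59e-07 for Meg3, 1.02e-05 for Dlk1 and 0.000155 for Ndn). Without the facility block 0 genes passed in edgeR, with 1103 at an unadjusted p below 0.05, and the log2 differences of Dlk1 and Ndn were 2.12 and 1.29. When 1 pool was left out, which leaves no block to fit, Meg3 ranged from 1.26 to 1.75, Ndn from 1.01 to 1.53 and Dlk1 from 1.76 to 2.49. Of these values, that of Dlk1 without young B passed (adjusted p = 0.0451, edgeR) and the others did not.

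**Figure D1:**
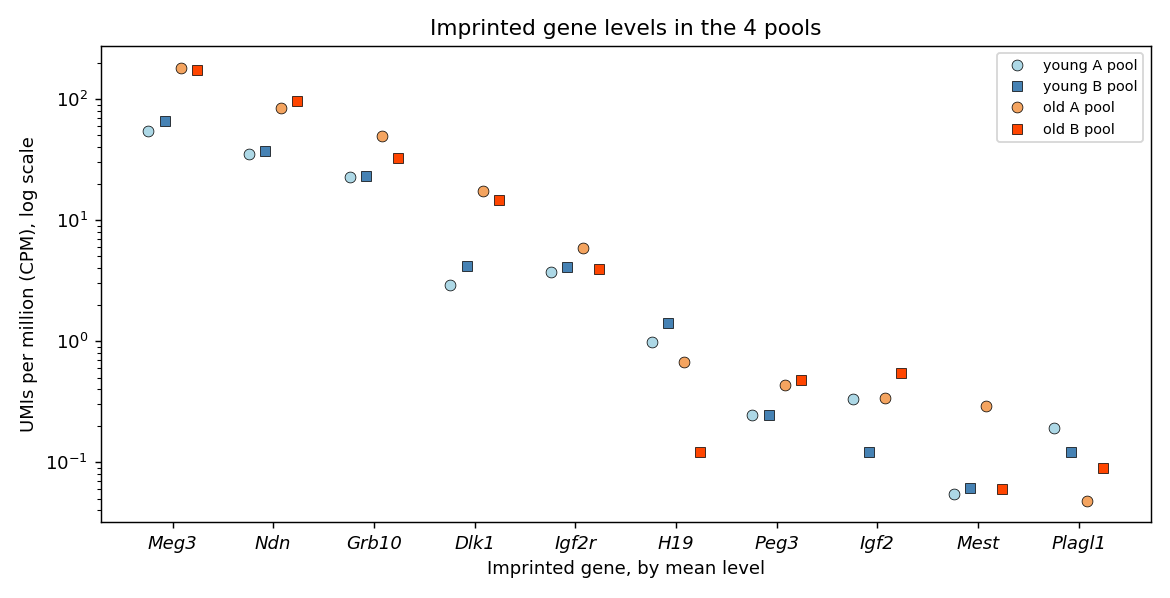
Level of each of the 10 imprinted genes (CPM, log scale) in the 4 pools, with young pools in blue, old pools in orange, circles for facility A and squares for facility B. Meg3, Ndn and Dlk1 show both old pools above both young pools, with Meg3 at 54.4 and 66.2 CPM in young and at 182 and 174 CPM in old pools. Grb10 shows the same order, as do Peg3 and Igf2 from few UMIs. H19 and Plagl1 show the reverse order, and Igf2r and Mest overlap.

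The other members ranged from clearly detected to nearly absent. Grb10 (ENSMUSG00000020176), an adaptor protein that dampens insulin and growth factor receptors, lies at chr11:11930508-12038683 on the minus strand. It reached 22.7 CPM in young A, 23.0 CPM in young B, 49.8 CPM in old A and 32.4 CPM in old B. Both old pools were above the young pools, and old A was the higher of them. Its log2 difference of 0.76 ± 0.19 (SE) did not pass (adjusted p = 0.147, edgeR). Within the facilities the difference of log2(CPM + 1) was 1.10 between the A pools and 0.47 between the B pools.

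Igf2r (ENSMUSG00000023830), the receptor that takes Igf2 to the lysosome for breakdown, lies at chr17:12682406-12769664. It measured 3.70 CPM in young A, 4.09 CPM in young B, 5.82 CPM in old A and 3.94 CPM in old B. The ages overlapped, since old B lay between both young pools (log2 difference 0.25 ± 0.26 SE, adjusted p = 0.731, edgeR). Its ligand Igf2 (ENSMUSG00000048583) gave only 12, 2, 7 and 18 UMIs in young A, young B, old A and old B, too few for the test. H19 (ENSMUSG00000000031), the noncoding RNA gene that shares its enhancers with Igf2, lies at chr7:142575529-142578143. It gave 36, 23, 14 and 4 UMIs in young A, young B, old A and old B, or 0.988, 1.40, 0.673 and 0.120 CPM. Both old pools were below both young pools, but the log2 difference of -1.87 ± 0.81 (SE) did not pass (adjusted p = 0.365, edgeR).

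Peg3, a zinc finger protein gene read from the paternal copy, gave 9, 4, 9 and 16 UMIs in young A, young B, old A and old B (log2 difference 0.82 ± 0.64 SE, adjusted p = 0.638, edgeR). Mest, a paternally read gene for a hydrolase-like membrane protein, gave 2, 1, 6 and 2 UMIs. Plagl1, a zinc finger transcription factor that acts on other imprinted genes, gave 7, 2, 1 and 3 UMIs. Igf2, Mest and Plagl1 fell under the expression filter, so that 7 of the 10 members were tested. Of these 7, 3 passed, all higher in the old pools, against 1.6% of all tested genes called higher there. A change of Igf2, Mest, Plagl1 and Peg3 was not detectable at this depth, at which 3 UMIs correspond to 0.0823 to 0.183 CPM.

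Meg3 had the highest mean number of UMIs per cell with a UMI among the 10 members. Meg3 UMIs were found in 11.9% of cells in young A, 13.1% in young B, 28.5% in old A and 30.2% in old B. Since a deeper cell shows more genes, every cell was thinned to 3000 UMIs, which left out 50 cells of young B, 176 of old A and 4 of old B. At this common depth the shares were 8.96% (95% exact binomial interval 8.20 to 9.77) in young A, 10.4% (9.15 to 11.7) in young B, 21.7% (20.3 to 23.2) in old A and 21.9% (20.7 to 23.2) in old B. These intervals cover counting error only. Among the thinned cells with a UMI, the mean number of Meg3 UMIs was 2.45 in young A, 2.65 in young B, 2.66 in old A and 2.61 in old B. At this common depth the young and old pools thus overlapped in the amount per Meg3-containing cell and differed in the share of such cells. Before thinning the mean amount did not overlap, with 3.21 and 3.71 UMIs in young A and young B and 3.99 and 4.61 in old A and old B.

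Ndn had a UMI in 10.3% and 11.8% of thinned cells of young A and young B, and in 22.4% and 26.2% of those of old A and old B. Its mean per cell with a UMI was 1.13 and 1.10 in the young pools and 1.18 in both old pools. Dlk1 shares were 0.848% and 1.09% in the young pools and 3.87% and 2.89% in old A and old B, and here the mean per cell with a UMI was also higher in the old pools, 1.45 and 1.43 against 1.14 and 1.08. Grb10 shares were 7.05% and 7.52% in the young pools and 14.3% and 8.51% in old A and old B. Meg3 was unevenly spread over cells in every pool. Its variance over thinned cells was 3.76 to 4.31 times its mean, against 1.02 to 1.14 for Ndn, 1.001 to 1.07 for Grb10 and 1.14 to 2.36 for Dlk1, where counts scattered at random around 1 level give a ratio of 1. For an uneven gene this ratio also grows with the mean level, and Dlk1 averaged 9.71 CPM against 119 CPM for Meg3. Which of Meg3 and Dlk1 was more uneven relative to its level can therefore not be read from it. Of the thinned cells, 1.25% in young A, 1.60% in young B, 3.59% in old A and 3.28% in old B held 5 or more Meg3 UMIs. Before thinning these shares were 2.87%, 4.46%, 9.34% and 11.5%, and a single cell of old B held 37 Meg3 UMIs.

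**Figure D2:**
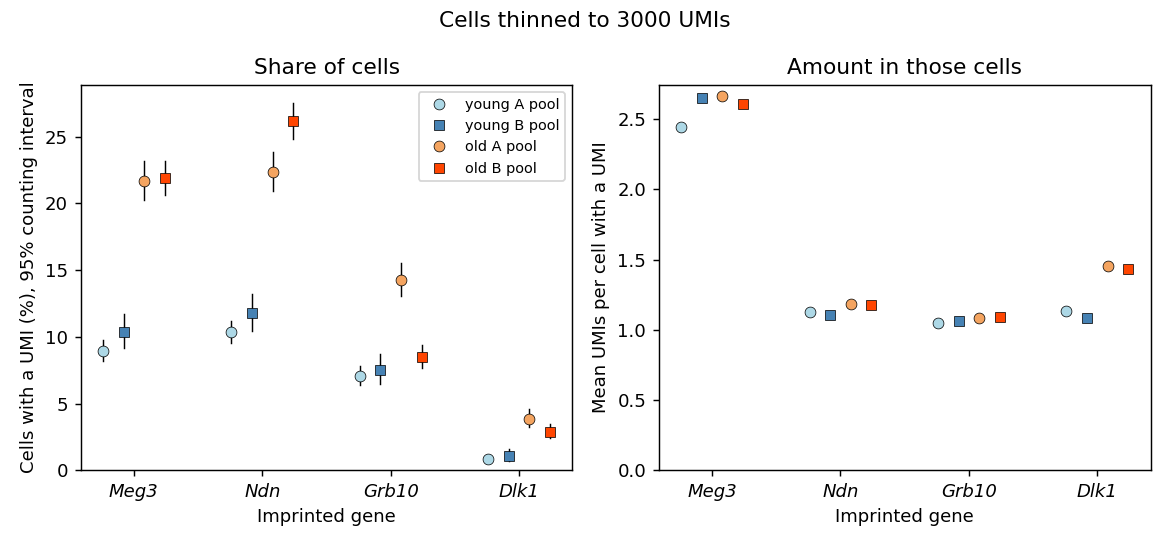
Left, share of cells with at least 1 UMI (%, bars are 95% exact binomial intervals) for Meg3, Ndn, Grb10 and Dlk1 in each pool after thinning to 3000 UMIs per cell, and right, mean UMIs in the cells that have one. For Meg3 the share lies at 8.96% and 10.4% in young and at 21.7% and 21.9% in old pools, while the amount per cell with a UMI lies between 2.45 and 2.66 in all 4 pools.

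Dlk1 UMIs were more frequent in cells with Meg3 UMIs than in cells without. Among thinned cells of the clusters without lineage priming, Dlk1 was found in 3.69% of Meg3-containing cells of young A against 0.669% of the remaining cells. The shares were 3.60% against 0.930% in young B, 8.57% against 2.84% in old A and 7.41% against 1.75% in old B. The odds ratio, combined over clusters within a pool, was 4.86, 3.08, 2.93 and 4.10 in young A, young B, old A and old B, from 17, 8, 57 and 67 cells with both RNAs. For Meg3 with Ndn, which lies on another chromosome, the odds ratios were 1.71, 1.44, 1.24 and 1.13, and for Ndn with Dlk1 they were 1.90, 2.88, 1.22 and 0.930. For Grb10 with Dlk1 they were 1.58, 5.81, 1.49 and 1.06, from 6, 8, 25 and 12 cells with both RNAs, so that in young B this pair exceeded Meg3 with Dlk1. The values are descriptions over cells of the same pools, which are not replicates.

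Cells were grouped in 15 clusters by an integration of the 4 pools in which the 10 members and the other imprinted genes listed below were left out. Fixed markers named neutrophil-, erythroid-, megakaryocyte-, mast- and T/ILC-primed clusters (7, 8, 10, 11 and 13), which form the lineage-primed class, a plasma cell cluster of 35 cells (14), and clusters led by replication (3), division (6), immediate early (9) and interferon response (12) genes. Clusters 0, 1, 2, 4 and 5 stayed unnamed. The median HSC marker was higher than in all other cells in clusters 0, 2, 4, 5, 9 and 12, and Cd34 and Flt3 were among the leading genes of cluster 1. None of the members had been used for clustering. Mean Meg3 over the 4 pools was 231 ± 44.0 CPM (SD, n = 4 pools) in cluster 0, 186 ± 63.9 in cluster 4, 183 ± 57.5 in cluster 2 and 153 ± 72.5 in cluster 5. It was 64.9 ± 58.1 CPM in cluster 1, 46.2 ± 39.0 in the replication cluster 3 and 22.7 ± 16.1 in the division cluster 6. In the lineage-primed clusters Meg3 lay at 20.5 ± 15.3 CPM in megakaryocyte-primed, 17.6 ± 23.8 in mast-primed, 10.4 ± 6.75 in neutrophil-primed and 4.001 ± 6.38 in erythroid-primed cells. T/ILC-primed cells (87 cells, 56 UMIs) stood apart at 112 ± 74.6 CPM, with 24.2 to 202 CPM in single pools. Dlk1 averaged 16.8 ± 10.1 CPM in cluster 2, 16.0 ± 17.6 in cluster 9, 12.7 ± 8.41 in cluster 0 and 10.1 ± 4.85 in cluster 4, and its highest mean, 20.6 ± 35.9 CPM, was in the T/ILC-primed cluster, from 12 UMIs, with 74.1 CPM in old A, 8.22 CPM in young B and none in the remaining pools. The immediate early cluster 9 held only 9 cells of young B, and Meg3 ranged there from 0 to 400 CPM. Neighbours in this order, such as clusters 0, 2, 4 and 5, differed by less than their spread, to which the age difference adds.

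The lineage-primed class held Meg3 at 2.44, 20.2, 30.3 and 12.7 CPM in young A, young B, old A and old B, against 65.1, 74.0, 201 and 185 CPM in the non-primed clusters. The ratio between the classes was thus 26.7, 3.67, 6.65 and 14.6 in these pools. The class held 15, 47, 68 and 26 Meg3 UMIs in them, and its 87 T/ILC-primed cells gave 56 over all pools. For Ndn the ratio was 10.1, 4.23, 6.59 and 4.08, and for Grb10 3.03, 2.34, 2.26 and 1.86, so that all 3 were higher in non-primed cells of every pool. Dlk1 averaged 10.5 CPM in the non-primed and 2.12 CPM in the lineage-primed class, where it had 1 to 14 UMIs per pool. Over all pools, 12 of the Dlk1 UMIs of the lineage-primed class came from T/ILC-primed cells. H19 UMIs were found mainly in clusters 0, 2, 4 and 5, at mean levels of 1.95, 1.71, 1.70 and 0.909 CPM. Igf2r had its highest mean in the division cluster 6, 7.55 ± 2.66 CPM, which differed from the 6.32 ± 0.871 CPM of cluster 0 by less than its spread. By class, Igf2r averaged 4.72 CPM in the non-primed and 1.91 CPM in the lineage-primed clusters, where it had 0 to 10 UMIs per pool. As a gauge of UMIs from free RNA, 2.70% of young and 6.71% of old neutrophil-primed cells had a Meg3 UMI at medians of 8516 and 9416 UMIs per cell, against 24.1% and 33.0% of cluster 0 cells at 4805 and 5246 UMIs.

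Levels also followed the cell cycle phase called from the cells' transcriptomes, and phase calls read free RNA as well. Meg3 in cells called G1 was 62.1, 71.7, 193 and 189 CPM in young A, young B, old A and old B, against 12.5, 27.1, 19.9 and 51.6 CPM in cells called G2M. Ndn in G2M cells was 15.7 and 19.2 CPM in the young pools and 53.4 and 68.5 CPM in the old pools, against 38.2, 39.1, 87.1 and 99.6 CPM in G1 cells. In CPM, both RNAs were therefore lower in G2M than in G1 cells of every pool. Cells of the division cluster 6 held a median of 11470 UMIs, against 5017 in cluster 0, so that a lower CPM need not mean less RNA per cell. In young A, young B, old A and old B, cluster 6 had 345, 117, 81 and 172 cells with 37, 24, 13 and 99 Meg3 UMIs. Cluster 0 had 923, 449, 686 and 1262 cells with 844, 488, 902 and 1936, so Meg3 was lower per cell in cluster 6 of every pool. Ndn gave 58, 27, 39 and 152 UMIs in cluster 6 and 323, 138, 328 and 922 in cluster 0. Per cell, Ndn was lower in cluster 6 in the young pools only. Amounts per cell were not compared between phases.

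**Figure D3:**
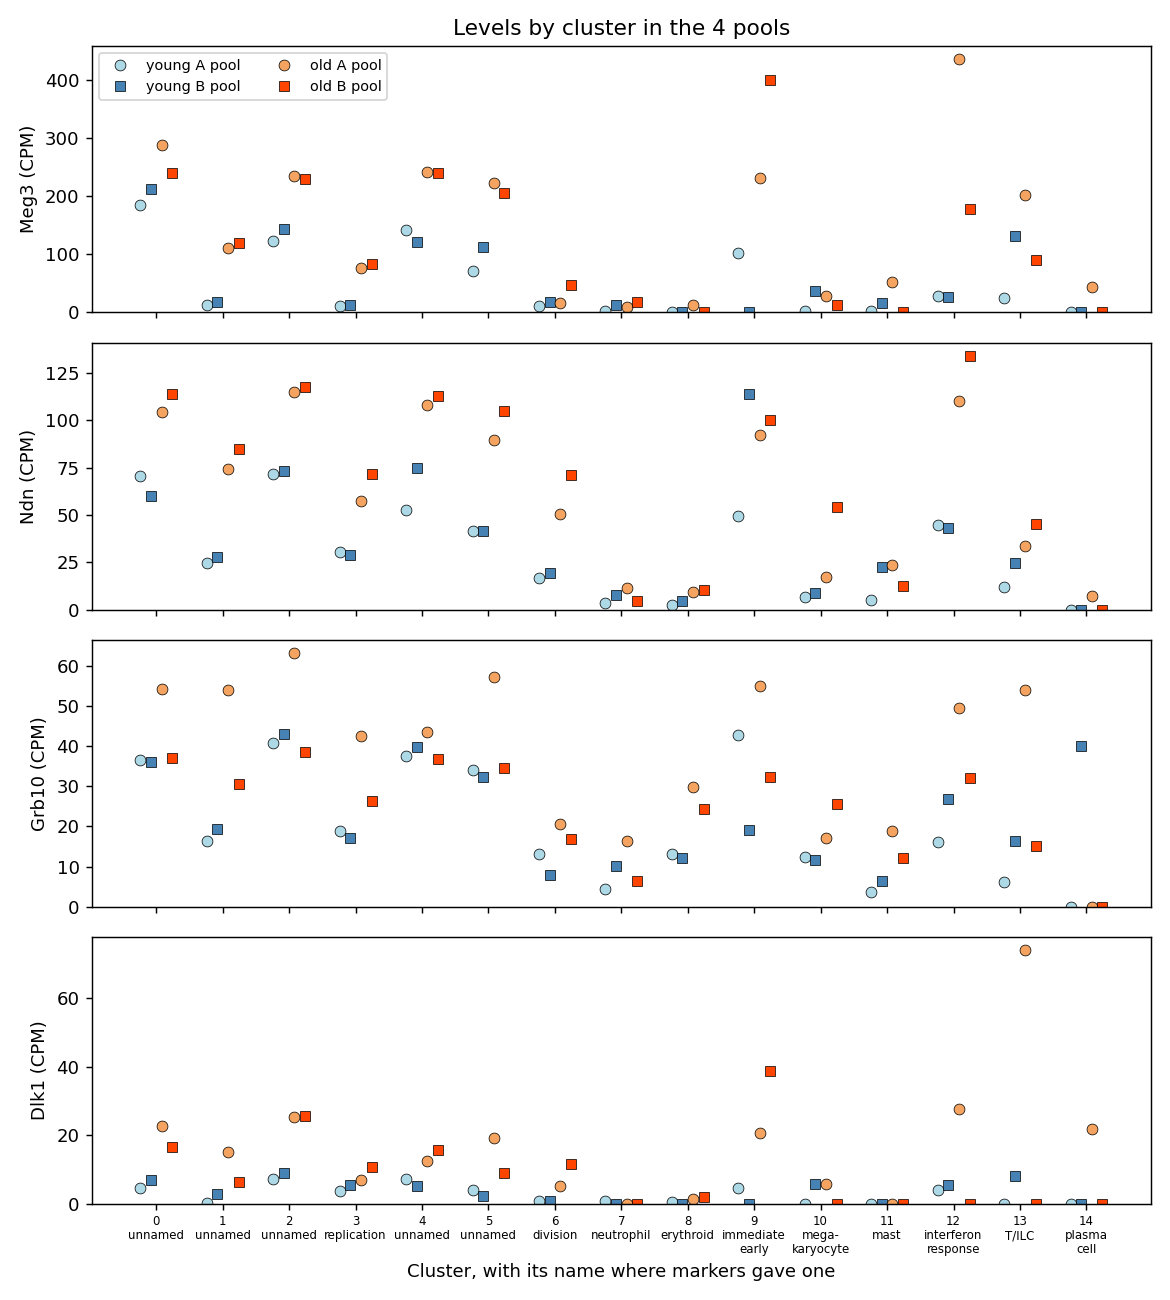
Levels of Meg3, Ndn, Grb10 and Dlk1 (CPM, linear axes) in the 15 clusters, with 1 point per pool (young blue, old orange, circles facility A, squares facility B). Meg3 is high in both ages in clusters 0, 2, 4 and 5, and in clusters 1 and 3 it lies at 11.5 to 17.2 CPM in the young pools and at 76.5 to 119 CPM in the old pools.

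Genes were then ranked by how closely their mean log2(CPM + 1) over 12 clusters followed a member, as a description over clusters that share libraries. Among the nearest to Meg3 were Sult1a1 (Pearson r = 0.982), Pde2a (0.980), Cracr2b (0.976) and Fgd5 (0.976), the last of which is on the HSC list. Nearest to Ndn were Clec1a (0.991), Ecscr (0.990), Foxa3 (0.986), Erp27 (0.984) and Mettl24 (0.982). Nearest to Grb10 were Fam213a (0.969), Klf9 (0.963), Prickle1 (0.963), Pgpep1 (0.963) and 5930430L01Rik (0.962). Among the members themselves, r was 0.951 for Meg3 with Ndn, 0.908 for Meg3 with Dlk1, 0.923 for Ndn with Dlk1 and 0.938 for Grb10 with Dlk1, against 0.548 for Meg3 with Igf2r.

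Within the non-primed clusters, Meg3 and Dlk1 rose as they did over whole pools, and Ndn came close to the threshold. There the log2 difference was 1.43 ± 0.17 (SE) for Meg3 (adjusted p = 0.0444, edgeR) and 2.06 ± 0.22 for Dlk1 (adjusted p = 0.0378). Ndn stood at 41.1 and 41.7 CPM in young A and young B and at 93.8 and 101 CPM in old A and old B, a log2 difference of 1.19 ± 0.16 (SE) that did not pass (adjusted p = 0.0587, edgeR). It passed with coarser or finer clusters (adjusted p = 0.0320 and 0.0493), with no low-count filter (0.00568) and with DESeq2 (0.000842). It did not pass in edgeR with RLE scaling factors (adjusted p = 0.0512) or with no facility block (0.255). Nor did it pass with the clustering genes in alphabetical order (0.0543). With 1 pool left out, its log2 difference was 0.958 to 1.41. Among the coarser clusters, a cluster of 483 cells led by Prss34, Mcpt8 and Elane stayed unnamed and so counted as non-primed. The lineage-primed cells of young A fell there from 686 to 348, so that the coarser fit also holds lineage-primed cells. In the main non-primed fit 1.5% of 13375 genes passed, 1.18% higher in the old pools. In the lineage-primed clusters, where 0.302% of 9615 genes passed, 0 of the 3 members tested did, with 2 at an unadjusted p below 0.05 in edgeR and 1 in DESeq2, which called 0 as well. Meg3 overlapped there, because young B had 20.2 CPM, more than the 12.7 CPM of old B (log2 difference 1.33 ± 0.75 SE, adjusted p = 0.9998, edgeR). The 87 T/ILC-primed cells gave 56 of the Meg3 UMIs of this class, and a fit without them was not made. Ndn was 4.06 and 9.86 CPM in the young pools and 14.2 and 24.8 CPM in the old pools, a log2 difference of 1.49 ± 0.36 (SE, adjusted p = 0.279, edgeR).

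Whether the age difference itself differed between the classes was tested with an age by class term, for which 2.37% of 12738 genes passed. The difference of the age effects, non-primed minus lineage-primed, was 0.09 ± 0.45 (SE) on the log2 scale for Meg3 (adjusted p = 0.979, edgeR) and -0.43 ± 0.31 for Ndn (adjusted p = 0.711). Of the 6 members tested, 0 passed and 0 had an unadjusted p below 0.05. In simulated data this term called 0 of 93 genes changed by a log2 difference of 1. The absence of calls therefore does not show equal age effects in both classes. The value for Meg3 hung on single pools, since it was 1.32 without young A (adjusted p = 0.115), -1.49 without young B (adjusted p = 0.00416) and -0.40 without old B (adjusted p = 0.684).

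Single clusters with at least 40 cells in every pool were examined as an addition chosen after these values were seen. Meg3 had a log2 difference above 0 in all 8 clusters in which it was tested, and it passed in 3 of them. In cluster 1 it was 12.2 and 17.2 CPM in young A and young B and 111 and 119 CPM in old A and old B, a log2 difference of 2.94 ± 0.21 (SE, adjusted p = 0.000888, edgeR, 1.06% of genes called higher in the old pools). In the replication cluster 3 it was 11.5 and 13.4 CPM in the young pools and 76.5 and 83.2 CPM in the old pools, a log2 difference of 2.60 ± 0.21 (SE, adjusted p = 0.000393, edgeR, 1.2% called higher). Cluster 0, where young cells already held 184 and 212 CPM, reached 288 and 239 CPM in the old pools (0.39 ± 0.21 SE, adjusted p = 0.614, edgeR). Cluster 5 lay between, with 1.24 ± 0.25 (adjusted p = 0.0136, 1.56% called higher). The shares of genes called higher were 1.4% in cluster 0, 0.72% in cluster 2, 1.13% in cluster 4, and 0.0144% and 0.0156% in clusters 7 and 8. The differences between clusters were not tested, because the clusters to compare would have been picked from these values.

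Ndn had a log2 difference above 0 in all 7 clusters tested and passed in 3 of them. They were clusters 1 (1.54 ± 0.19 SE, adjusted p = 0.0119, edgeR), 5 (1.20 ± 0.24, adjusted p = 0.0141) and the division cluster 6. In the division cluster Ndn was 16.5 and 19.3 CPM in the young pools and 50.4 and 71.3 CPM in the old pools (1.69 ± 0.33 SE, adjusted p = 0.00108, edgeR, 1.2% called higher). Dlk1 had a log2 difference above 0 in all 6 clusters tested and passed in 2 of them. In cluster 0 it went from 4.59 and 6.95 CPM to 22.6 and 16.5 CPM (1.78 ± 0.34 SE, adjusted p = 0.0423, edgeR), and in cluster 5 from 4.05 and 2.30 CPM to 19.3 and 8.85 CPM (2.11 ± 0.52 SE, adjusted p = 0.0487, edgeR). Grb10 passed in 0 of 8 with edgeR, with an unadjusted p below 0.05 in 3, among them cluster 1 (1.15 ± 0.28 SE, adjusted p = 0.132) and cluster 3 (0.83 ± 0.24, adjusted p = 0.201). HSC markers moved with age inside the same clusters. In cluster 1 all 13 of the HSC list were higher in old cells in mean log2(CPM + 1), by a median of 0.53, and in cluster 3 all 13 by a median of 0.57, against 12 of 13 and a median of 0.35 in cluster 0. Of these, 2, 3 and 1 passed the test. In clusters 2, 4, 5 and 6 there were 13, 12, 12 and 9 of 13 higher, by medians of 0.44, 0.34, 0.41 and 0.63. In clusters 7 and 8 there were 7 of 13 in each, by medians of 0.05 and 0.02. The largest median was thus in cluster 6, where Meg3 did not pass (1.07 ± 0.37 SE, adjusted p = 0.218, edgeR). The part of a shift in cell state within a cluster was not tested.

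**Figure D4:**
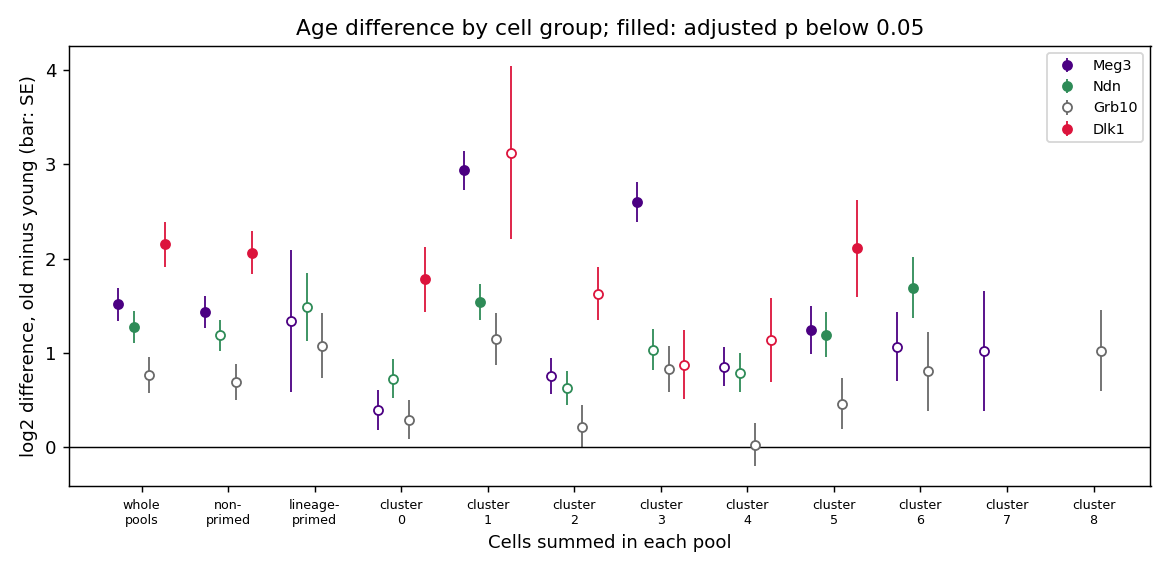
Log2 difference, old minus young, of Meg3, Ndn, Grb10 and Dlk1 from edgeR (points, bars are SE) over whole pools, in both cell classes and in single clusters, with filled points where the adjusted p was below 0.05. Meg3 reaches 2.94 in cluster 1 and 2.60 in cluster 3, against 0.39 in cluster 0, and all plotted values are above 0.

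The share of lineage-primed cells differed as well, with 13.2% and 11.7% in young A and young B and 9.01% and 5.08% in old A and old B. When every cluster was given the same share in all pools, an alternative added after seeing the data, the log2 ratio of mean CPM was 1.01 instead of 1.56 for Meg3, 0.97 instead of 1.33 for Ndn, 0.57 instead of 0.85 for Grb10 and 1.77 instead of 2.18 for Dlk1. With cluster shares held equal, standardized Meg3 was 71.9 and 82.6 CPM in young A and young B and 159 and 153 CPM in old A and old B. Both old pools remained above both young pools for Meg3, Ndn and Dlk1.

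Of 52 further imprinted genes, 49 were listed, 30 were tested and 1 passed, where 2.03% of all tested genes did. At an unadjusted p below 0.05 there were 8 of the 30, against 2175 of all 13555 genes tested. The gene that passed was Snrpn, a paternally read gene for a splicing protein whose transcript also carries the Snurf reading frame. Snrpn was 2.36 and 3.48 CPM in young A and young B and 14.4 and 13.4 CPM in old A and old B (log2 difference 2.23 ± 0.22 SE, adjusted p = 0.0218, edgeR). It lies at chr7:59982495-60140219, 2206.3 kb from Ndn. The median log2 difference of the 30 genes was 0.03, against 0.01 over all tested genes. DESeq2, which called 4.01% of all genes, called 3 of them, Snrpn, Asb4 (log2 difference 2.46, adjusted p = 0.0177) and Slc22a3 (-1.05, adjusted p = 0.0151). Asb4 and Slc22a3 are named here after their values were seen.

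Few neighbours of the 3 genes passed. Within 1000 kb of Meg3, 10 genes were tested and 1 passed, which was Dlk1, and the same held for Dlk1 with Meg3. Mirg, a noncoding RNA of the same domain 158.0 kb from Meg3, had a log2 difference of 1.09 (adjusted p = 0.568, edgeR). Near Ndn, the imprinted genes Mkrn3 (0.42, adjusted p = 0.647) and Peg12 (0.77, adjusted p = 0.184) were tested, and neither passed. Snrpn, which passed, lies 2206.3 kb from Ndn on the same chromosome and so outside the 1000 kb searched. Mirg, Mkrn3 and Peg12 are named as imprinted neighbours, after their values were seen. The counts for Meg3 and Dlk1 are the same pair of members seen from each side. No other tested neighbour of the 3 genes passed, where 2.03% of all genes did.

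**Figure D5:**
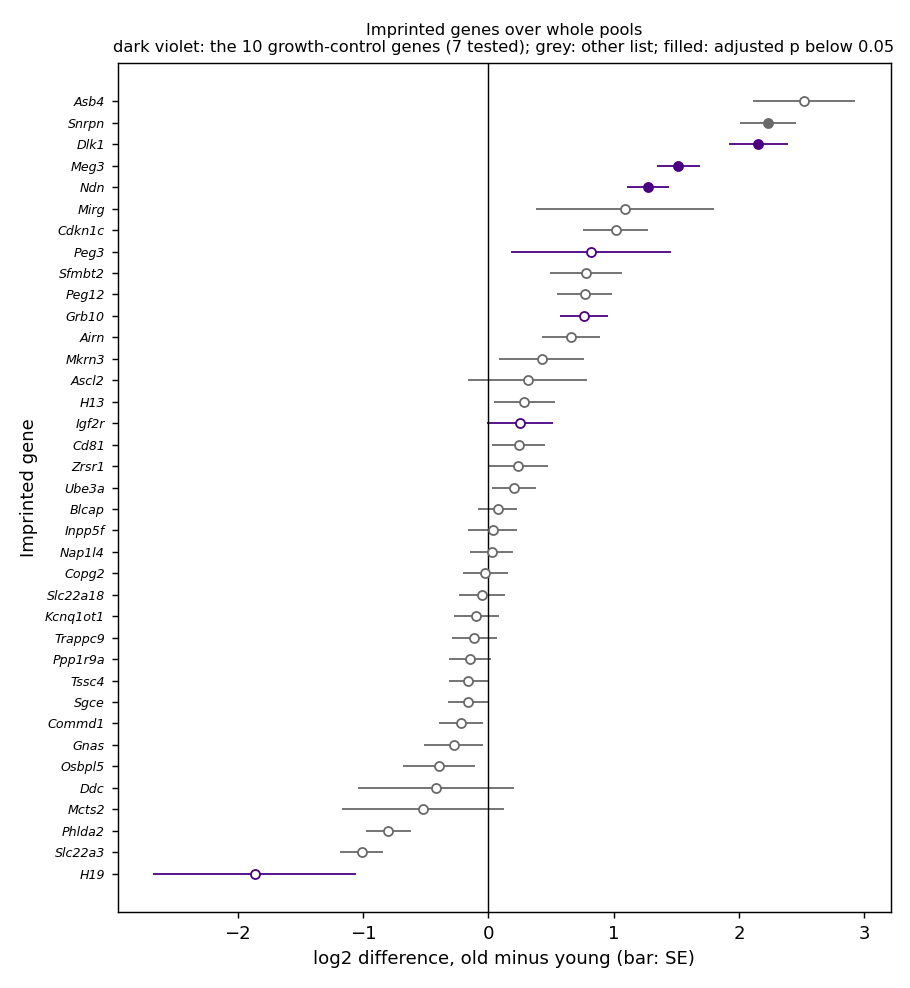
Log2 difference, old minus young, over whole pools for the 7 tested growth-control genes (dark violet) and the 30 tested genes of the wider imprinted list (grey), with SE bars and filled points for an adjusted p below 0.05. Dlk1 (2.15), Meg3 (1.52), Ndn (1.28) and Snrpn (2.23) are filled, and most of the wider list lies near 0.

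The genes that set or guard imprints were examined next. Of 15 genes for DNA methylation, its removal and imprint keeping, 12 were tested and 0 passed with either edgeR or DESeq2, while 5 had an unadjusted p below 0.05 in edgeR, as did 2175 of all 13555 genes tested. Their median log2 difference was -0.29, with 1 of 12 above 0, against 0.01 over all tested genes. The maintenance methyltransferase Dnmt1 was 62.0 and 69.6 CPM in the young pools and 45.3 and 47.0 CPM in the old pools (-0.56, adjusted p = 0.175, edgeR). Zfp57, the imprint keeper, was 2.47 and 2.93 CPM in the young pools and 6.59 and 6.88 CPM in the old pools (1.27, adjusted p = 0.0755, edgeR). Both are named after their values were seen. Replication genes, a program in which Dnmt1 takes part, summed to 721 to 844 CPM in the young pools and 393 to 611 CPM in the old pools, and the part of this shift was not tested.

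In the insulin-like growth factor and insulin pathway, on which Igf2, Igf2r and Grb10 act, 30 of 37 genes were tested and 0 passed with edgeR, while 4 had an unadjusted p below 0.05, against the same 2175 of 13555 genes. The median log2 difference was 0.04, with 20 of 30 above 0. The receptor Igf1r was 55.9 and 53.7 CPM in young A and young B and 67.5 and 50.2 CPM in old A and old B, with overlap of the ages (0.04, adjusted p = 0.952, edgeR). DESeq2 called 1 gene, the growth factor Igf1, which was 5.62 and 5.24 CPM in the young pools and 2.74 and 0.811 CPM in the old pools (-1.93, adjusted p = 0.0326, against 0.128 in edgeR). Igf1r and Igf1 are named after their values were seen.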

How the data were processed

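Per the labels, HSPCs of 4 mouse pools were captured with 10x Genomics 3′ v2 chemistry. The authors aligned reads and counted UMIs with Cell Ranger 2.2.0 (GRCm38, mm10), and the deposited values are raw UMI counts per gene and cell. Cells within 2 SD of the mean log UMI total of their pool were kept. Pools were integrated (Seurat 5.3.0, 2000 variable genes, 15 components, resolution 0.5) with phase scores from scran 1.30.0 regressed out, and without 62 imprinted genes. UMIs were summed per pool, or per pool and class, and tested with edgeR 4.0.16 (R 4.3.3; TMM, low-count filter, age plus facility) at an adjusted p of 0.05. The facility letter pairs the pools: deviations of same-letter pools from their age means correlated at r = 0.576 over 13555 genes, but at r = -0.0995 over the 7 members tested. A cluster took a marker list's name with at least 3 of its genes at a log2 ratio of 1 or more over other cells and in 10% of its cells, 1 of them in its top 10. Doublets were not called beyond the limit on UMI totals. Intervals are exact binomial (Clopper-Pearson).

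The members and gene lists were chosen with earlier results of these data known. Genes were named by rule if they are members, called genes of a list, or among the 5 genes nearest in cluster pattern to each member with a mean of at least 10 CPM, of which 1 is not reported here; other genes were named after their values were seen. Alternatives were no facility block, DESeq2 1.42.0, no filter, RLE factors, all deposited barcodes, cells thinned to 3000 UMIs, no lineage-primed clusters, resolutions 0.3 and 0.8, and each pool left out. Single clusters, equal cluster shares and clustering genes in alphabetical order were added after seeing the data. The fits were tested on simulated data with 1 common spread and known log2 differences. Over whole pools, 17 of 100 tested genes changed by a log2 difference of 1 were called, and 89 of 94 changed by 2. For the age by class term the counts were 0 of 93 and 27 of 99. A member or listed gene that did not pass may therefore still differ by about 2-fold. Of the wider imprinted list, 3 genes (Rian, Snhg14 and Peg13) were not analysed here. Gene positions are from GENCODE M21 (GRCm38) and promoter windows from RefSeq.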

Additional observations from a re-analysis of the deposited data

How the results depend on the processing

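With no facility block the calls for Meg3, Ndn and Dlk1 were lost. The block cannot be fitted once a pool is left out, and in those fits only Dlk1 without young B passed (2.49, adjusted p = 0.0451, edgeR). Over whole pools 275 genes passed, against 543 with DESeq2, 774 with no low-count filter and 0 with no facility block (no pairing of the pools), and 0 to 287 when 1 pool was left out, the lowest without old B. Of the members, 3 passed, against 0 with no block and 0 to 1 with 1 pool left out, and 3 under the other alternatives run. Of the 3 further lists, 1 gene passed, against 0 with no block, 4 with DESeq2, 6 with no filter, 2 with all deposited barcodes and 0 to 1 with 1 pool left out. In the non-primed clusters 200 genes passed, against 0 with no block, 524 with DESeq2, 897 with no filter, 370 at resolution 0.3 and 0 to 306 with 1 pool left out. In the lineage-primed clusters 29 passed, against 0 with no block, 17 with DESeq2, 61 with no filter, 0 with RLE factors (293 at an unadjusted p below 0.05), 10 at resolution 0.3 and 0 to 54 with 1 pool left out. The age by class term had 302, against 0 with no block, 97 at resolution 0.3 and 158 to 433 with 1 pool left out. At an unadjusted p below 0.05 the fits with no block had 1103, 1112, 111 and 201 genes in these 4 comparisons. Cluster borders moved with the order in which the same clustering genes were entered, an alternative added after an earlier run, in which rounding alone had reordered genes of nearly equal rank, gave other clusters and let Ndn pass in the non-primed class. In alphabetical order they gave 219, 8 and 235 calls in the non-primed, lineage-primed and age by class fits, and the members kept their side of the threshold (Ndn in non-primed cells 1.19, adjusted p = 0.0543, edgeR). Numbered clusters and the calls in them are therefore less firm than those over whole pools. With no filter Ndn passed in the lineage-primed clusters (1.47, adjusted p = 0.0401, edgeR), and without young B so did Meg3 (3.11, adjusted p = 0.0258). Signs turned on leaving out a pool for Igf2r in non-primed cells (-0.00719 to 0.32), Meg3 in lineage-primed cells (-0.17 to 3.11), and the age by class terms of Meg3 (-1.49 to 1.32), Ndn (-0.92 to 0.28), H19 (-6.59 to 0.79), Igf2r (-1.03 to 7.64) and Dlk1 (-0.80 to 2.63). The last, -0.00807 otherwise, was also 0.0045 with no filter and 0.39 at resolution 0.8. At resolution 0.3 a cluster of 483 cells with neutrophil- and mast-primed markers stayed unnamed and so counted as non-primed. The log2 ratio of Mest between the classes was -0.88 at resolution 0.3, against 0.09. In the main clusters the lineage-primed class held 1 Mest UMI, in old A, so that the ratio there rests on that UMI. Mest stood in the lineage-primed cells of old A at 0.445 CPM, and at 0.820 CPM at resolution 0.3. These cells numbered 300 and 177. The cause was not tested. The fits with 1 pool left out assume that the lone pool varies like the others. Depth limits Igf2, Mest, Plagl1, Peg3 and H19, with at most 36 UMIs per pool.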
